A study of Mus musculus with 4 samples.

Results

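The 9 Toll-like receptor genes Tlr1, Tlr2, Tlr4, Tlr5, Tlr6, Tlr7, Tlr8, Tlr9 and Tlr13 and the co-receptor gene Cd14 were examined in cultured mouse astrocytes. They were matched by symbol, and all 10 were present among the 25393 genes of the deposited table. Directions rest on the labels, since Tet1 itself was not lower in the libraries labelled Tet1 KO. In the WT libraries this group was dominated by Tlr2 and Cd14. In the libraries labelled Tet1 KO, 8 of the 10 genes had lower values in both libraries than in either WT library (25.4% of all tested genes), Tlr6 had higher values in both (22.5% of all tested genes), and Tlr4 overlapped between the groups. Tlr2 was at 2177 ± 30.8 normalized counts in WT and 314 ± 366 in the libraries labelled Tet1 KO (mean ± SD, n = 2 each), while Tlr6 was at 31.5 ± 11.4 and 260 ± 156. In bulk samples fewer cells of a type and less RNA per cell cannot be told apart, and microglial markers were also lower under that label.

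Toll-like receptors are membrane proteins that recognise conserved parts of microbes and some signals of tissue damage. Tlr1, Tlr2, Tlr4, Tlr5 and Tlr6 act mainly at the cell surface, where they bind lipoproteins, lipopolysaccharide or flagellin. Tlr7, Tlr8, Tlr9 and Tlr13 act in endosomes, where they bind nucleic acids. Ligand binding recruits the adaptors Myd88 or Ticam1 and leads to NF-kB and interferon regulatory factor activity. In brain, microglia are known to carry most of these receptors, and cultured astrocytes have been reported to carry several of them, Tlr2, Tlr3 and Tlr4 among them.

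The comparison asked how loss of Tet1, a dioxygenase that makes 5-hydroxymethylcytosine, alters gene expression in astrocytes. The 4 RNA-seq libraries were 2 of wild type (WT) and 2 of tet1-/- (Tet1 KO) cells, all untreated and of strain C57BL/6. The KO mice lack Tet1 constitutively. The cells came from cortex and hippocampus of mice at postnatal day 1, with 2 mice per isolation, and were grown for about 7 days, purified by shaking at 260 rpm and kept for a further 24 h. The study calls its RNA-seq repeats biological but names more repeats per genotype than the libraries analysed here. Whether the libraries of a group came from separate litters or cultures is not said, so the p-values measure the spread between these libraries only.

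The libraries held from 18749610 to 22673555 reads on genes. The values, called normalized counts here, are reads per gene scaled by a factor for each library, and 1 read was worth 0.901 to 1.07 of them. Replicates were not copies of one library: the median chi-square per gene was 8.04 within WT and 27.1 within the other label, where noise alone gives 0.455. Tet1 itself, the targeted gene, was at 266 and 121 normalized counts in WT, against 173 and 463 under the KO label. It was not lower in them (limma log2 fold change 0.66, SE 0.65, adjusted p = 0.691), a value per gene does not show which exons its reads cover, and every direction below rests on the label ("under the KO label" means in the libraries labelled Tet1 KO). All 8 astrocyte markers checked were present. Of these, 5 were lower in both libraries labelled Tet1 KO than in both WT libraries and 1, Gja1, was higher, where 25.4% and 22.5% of all tested genes were. Their summed level, most of it Gfap in labelled Tet1 KO replicate 1, was 146600 and 148514 normalized counts in WT, against 235812 and 44286 under the KO label.

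Promoter sequences from RefSeq were available for 7 of the 10 genes (assembly GRCm38.p6, 250 bases before to 50 after the start). The sequences of 4 genes are printed because the comparison turns on them. Tlr2 is the most abundant receptor in WT, and Tlr13 had the largest number of WT reads among Tlr7, Tlr8, Tlr9 and Tlr13. Tlr6 and Tlr1 are neighbours on chromosome 5 with opposite differences. The window of Tlr2 is chr3:83841559-83841858 (minus strand), that of Tlr13 chrX:106143025-106143324 (plus strand), that of Tlr1 chr5:64933509-64933808 (minus strand) and that of Tlr6 chr5:64959999-64960298 (minus strand), and each is written 5′ to 3′ on the strand of its gene. Tlr1 and Tlr6 have 2 listed starts each, and the start nearest the 5′ end of the gene is shown. Capitals mark matches, on either strand, to GAGGAA, the core bound by the macrophage factor PU.1, and to GGGANNNNCC, a kappaB-like motif bound by NF-kB.
Tlr2: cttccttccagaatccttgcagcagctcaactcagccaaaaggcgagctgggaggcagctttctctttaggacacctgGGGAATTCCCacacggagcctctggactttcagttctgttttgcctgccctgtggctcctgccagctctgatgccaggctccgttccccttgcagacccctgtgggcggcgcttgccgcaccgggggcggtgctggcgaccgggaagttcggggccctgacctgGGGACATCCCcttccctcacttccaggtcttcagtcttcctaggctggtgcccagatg
Tlr13: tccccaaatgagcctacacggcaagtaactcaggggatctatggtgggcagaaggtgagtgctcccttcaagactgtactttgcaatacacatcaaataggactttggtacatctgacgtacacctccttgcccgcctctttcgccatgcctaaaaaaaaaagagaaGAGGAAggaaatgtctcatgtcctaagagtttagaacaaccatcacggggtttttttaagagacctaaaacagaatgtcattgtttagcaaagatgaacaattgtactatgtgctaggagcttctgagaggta
Tlr1: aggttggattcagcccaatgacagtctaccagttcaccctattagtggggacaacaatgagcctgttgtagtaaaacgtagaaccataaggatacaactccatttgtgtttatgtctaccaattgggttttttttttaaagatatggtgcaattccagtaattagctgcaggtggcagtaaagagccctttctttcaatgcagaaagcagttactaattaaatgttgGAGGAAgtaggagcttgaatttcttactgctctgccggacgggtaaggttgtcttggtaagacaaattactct
Tlr6: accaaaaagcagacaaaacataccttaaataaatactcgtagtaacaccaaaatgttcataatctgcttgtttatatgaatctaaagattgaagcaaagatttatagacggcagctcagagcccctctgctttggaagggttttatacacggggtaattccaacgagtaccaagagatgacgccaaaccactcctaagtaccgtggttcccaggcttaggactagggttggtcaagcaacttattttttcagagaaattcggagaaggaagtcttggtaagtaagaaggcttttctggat

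GAGGAA was found in 4 of the 7 promoters (Tlr1, Tlr8, Tlr9 and Tlr13) and in 28.3% of all 32851 promoters of this length outside chromosome 18. GGGANNNNCC was found in 2 of the 7 (Tlr2 and Tlr5) and in 20.7% of all promoters. The AP-1 motif TGANTCA was in 1 of the 7, that of Tlr9, and in 7.81% of all promoters. GAAANNGAAA, the core of the interferon-stimulated response element, was in 0 of the 7 and in 3.44% of all promoters. None of the matches overlapped another. The promoter of Tlr6 held none of these motifs in the window shown, which covers 1 of its 2 listed starts. The share of all promoters that hold none of them was not counted, so this absence is not set against a background. The motifs were chosen after the sequences were seen, and a match shows letters, not binding.

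Levels were compared between genes as FPKM, from recovered reads, deposited gene lengths and library totals. In WT, Tlr2 had 35.4 ± 1.53 FPKM, Cd14 23.7 ± 6.27 and Tlr4 1.39 ± 0.586 (mean ± SD, n = 2), and their ranges did not overlap. Tlr1 (0.551 ± 0.145), Tlr13 (0.503 ± 0.115) and Tlr6 (0.412 ± 0.137) followed, and neighbours in this trio overlapped. Tlr7 (0.223 ± 0.112), Tlr8 (0.175 ± 0.00445) and Tlr9 (0.141 ± 0.0694) lay below them and overlapped in the same way, and Tlr5 was the lowest at 0.0555 ± 0.000302. By the mean FPKM over the 4 libraries, Tlr2 lay above 89.1% and Cd14 above 84.4% of all listed genes, whereas Tlr5 lay above 11.6%.

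In the libraries labelled Tet1 KO this order was less clear. Tlr2 (5.13 ± 6.07 FPKM), Cd14 (4.25 ± 3.14), Tlr6 (3.24 ± 1.77) and Tlr4 (1.85 ± 2.03) overlapped each other (mean ± SD, n = 2). Tlr1 was at 0.135 ± 0.135 FPKM, and the other 5 receptors were at 0.0506 FPKM or below on average. The summed FPKM of the 9 receptors was 40.1 and 37.5 in WT, against 6.01 and 14.9 under the KO label. Tlr2 made up 90.9% and 91.4% of that sum in WT, 13.9% in labelled Tet1 KO replicate 1 and 63.4% in replicate 2. Tlr6 made up 0.784% and 1.36% in WT, against 74.6% and 13.4% under the KO label. Thus the receptor with the largest share was Tlr2 in 3 libraries and Tlr6 in labelled Tet1 KO replicate 1.

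**Figure D1:**
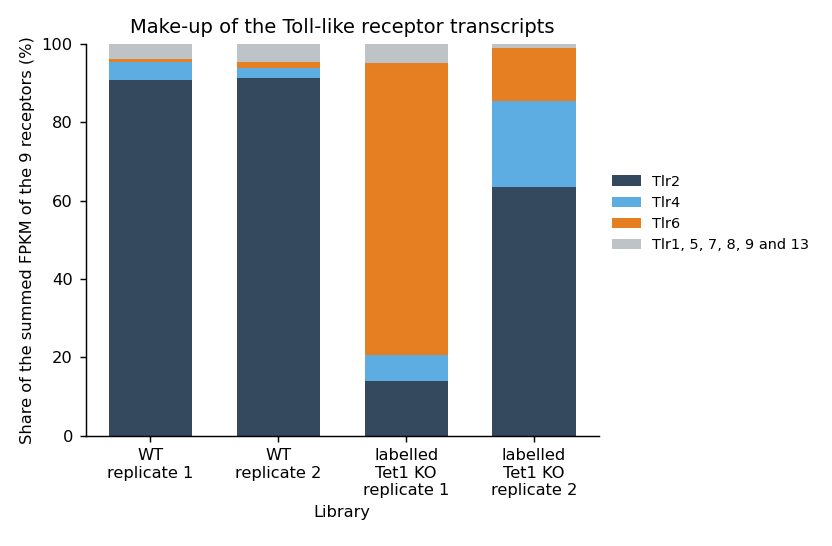
Stacked bars of the share of the summed FPKM of the 9 Toll-like receptors (y axis, percent) in each library (x axis), split into Tlr2, Tlr4, Tlr6 and the other 6 receptors. Tlr2 fills 90.9% and 91.4% of the WT bars and 13.9% and 63.4% of the bars labelled Tet1 KO, where Tlr6 takes 74.6% and 13.4%.

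The labels were tested by limma across 22094 genes whose mean reached 1, as log2(normalized count + 1), where changes of low genes come out too small. All 10 genes passed that filter. With Benjamini-Hochberg adjustment 0 of the 10 had an adjusted p under 0.05 in limma, as did 0.00% of all tested genes, and their adjusted p-values ran from 0.148 to 0.964. At an unadjusted limma p under 0.05, 5 of the 10 were lower in the libraries labelled Tet1 KO (Tlr2, Tlr8, Tlr9, Tlr13 and Cd14), against 9.18% of all tested genes, and 1 was higher (Tlr6), against 4.54%. Without WT replicate 1, or without WT replicate 2, 3 of the 10 passed in place of 6, while the number of all tested genes that passed went from 3032 of 22094 to 1029 of 21740 or 1386 of 22370. With edgeR's quasi-likelihood test on the recovered reads 0 had an adjusted p under 0.05 and 6 an unadjusted p under 0.05, as did 12.4% of all tested genes. DESeq2 on the same reads called 3 lower (Tlr2, Tlr13 and Cd14), where it called 4.62% of the genes it tested lower, and 1 higher (Tlr6), where it called 1.64% higher. DESeq2 gave no adjusted p for Tlr5 and Tlr9.

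Without overlap between the groups, 8 of the 10 were lower in the libraries labelled Tet1 KO, against 25.4% of all tested genes, and 1 was higher, against 22.5%, or 47.9% in either direction. The median log2 fold change of the 10 was -2.42 by limma, beside -0.07 over all tested genes. With Tlr8, which had 0 reads in both libraries labelled Tet1 KO, set to the bound that 3 reads allow, the median was -2.17. With 2 against 2 libraries, exact two-sided permutation p-values stop at 0.333.

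**Figure D2:**
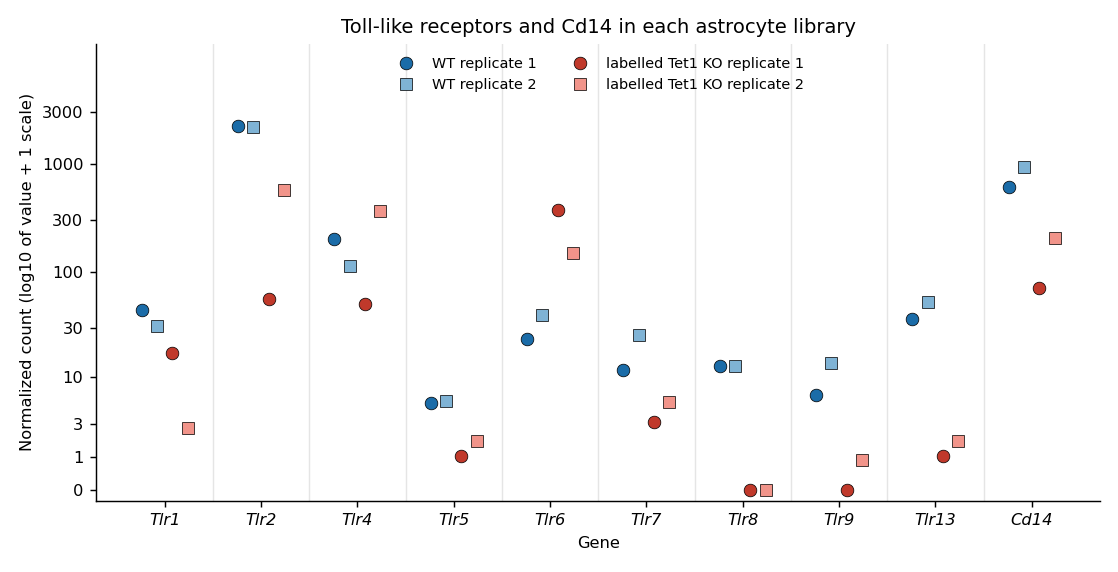
Normalized counts (y axis, log10 of value + 1 scale) of the 10 genes (x axis), with 1 point per library and 2 libraries in each group. The points of the libraries labelled Tet1 KO lie below both WT points for 8 genes and above them for Tlr6, and those of Tlr4 lie on either side.

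Tlr2 (ENSMUSG00000027995, chromosome 3 of mm10 from 83836272 to 83841767, minus strand) encodes the receptor that recognises bacterial lipoproteins together with Tlr1 or Tlr6. It was at 2199 and 2155 normalized counts in WT, against 55.7 and 573 under the KO label. The WT libraries were nearly equal, whereas those labelled Tet1 KO differed from each other 10.3-fold and both lay below WT. The limma estimate was -3.59 on the log2 scale (SE 1.06, adjusted p = 0.275), and DESeq2 gave -2.79 (adjusted p = 0.0358). The limma estimate was -1.92 without labelled Tet1 KO replicate 1 and -5.26 without replicate 2.

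Its partners Tlr1 and Tlr6 are neighbours on the minus strand of chromosome 5, 18467 bases apart. Tlr1 (ENSMUSG00000044827, 64924679 to 64933563) had 43.7 and 31.3 normalized counts in WT, against 17.1 and 2.70 under the KO label, the last from 3 reads. Tlr6 (ENSMUSG00000051498, 64952031 to 64960097) had 23.5 and 39.5 in WT, against 370 and 150 under the KO label. The groups did not overlap for either gene, with Tlr1 lower and Tlr6 higher under the KO label. The limma estimate of Tlr1 was -2.21 on the log2 scale (SE 0.95, adjusted p = 0.393), and neither edgeR nor DESeq2 called it. It was -3.36 by limma without labelled Tet1 KO replicate 1 and -1.07 without replicate 2.

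For Tlr6 the mean under the KO label was 8.25 times that of WT, and the limma estimate was 2.91 on the log2 scale (SE 0.63, adjusted p = 0.196). DESeq2 called it higher (3.04, adjusted p = 0.000721). Tlr6 was above WT in both libraries labelled Tet1 KO, with log2 differences between single libraries from 1.89 to 3.92, and the limma estimate was 2.26 without labelled Tet1 KO replicate 1 and 3.56 without replicate 2. The FPKM ratio of Tlr6 to Tlr1 was 0.482 and 1.14 in WT, against 19.4 and 49.7 under the KO label. Its exact two-sided permutation p was 0.333, the smallest that 2 against 2 libraries can give. Since both genes were already separated in opposite directions, this p was fixed beforehand and adds no support. Among the 45 pairs of these genes, Tlr1 and Tlr6 were the only pair whose annotated transcripts shared any stretch of 50 bases. Of the 50-base stretches of Tlr1, 13.6% also occurred in Tlr6, and 12.3% of those of Tlr6 occurred in Tlr1. Reads from these stretches could not be assigned to one of the 2 genes with certainty, and how the authors counted such reads is not given in the sources used here.

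**Figure D3:**
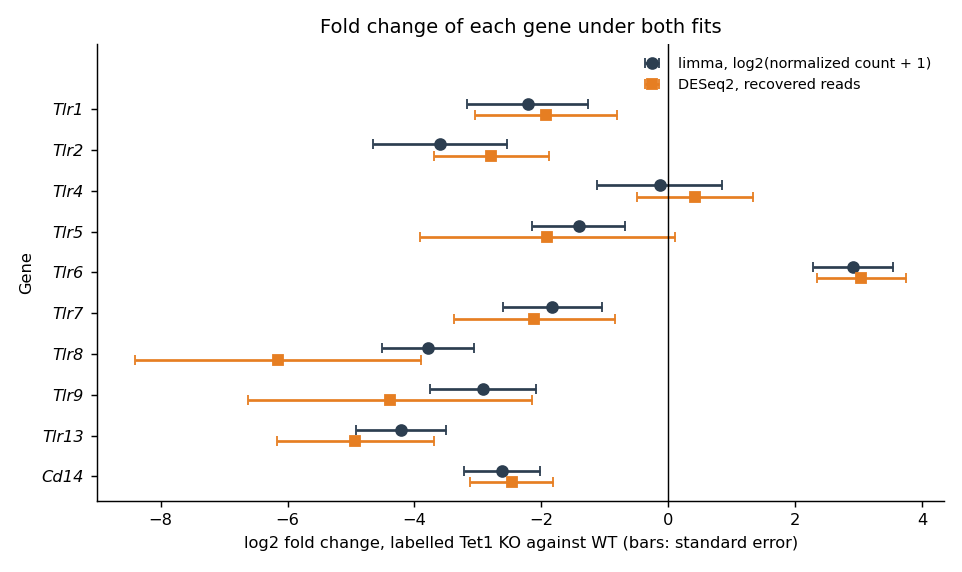
Log2 fold change of the libraries labelled Tet1 KO against WT (x axis) for each of the 10 genes (y axis), from limma on log2(normalized count + 1) (circles) and DESeq2 on recovered reads (squares), with bars of 1 standard error. Tlr6 is at 2.91 and 3.04, Tlr4 lies on both sides of 0, and the other 8 are below 0. The DESeq2 value of Tlr8 comes from a group with 0 reads and is no estimate of size.

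Tlr4 (ENSMUSG00000039005, chromosome 4 from 66827584 to 66930284, plus strand), the signalling receptor for lipopolysaccharide, had 201 and 113 normalized counts in WT, against 50.3 and 369 under the KO label. Both the lowest and the highest value came from the libraries labelled Tet1 KO, 7.33-fold apart, so that the groups overlapped fully. Its limma estimate was -0.14 on the log2 scale (SE 0.98, adjusted p = 0.964), and it turned to 0.42 with DESeq2, 0.36 with edgeR and 0.20 after quantile normalization. A difference between the labels was not detectable against this spread.

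Cd14 (ENSMUSG00000051439, chromosome 18 from 36725074 to 36726736, minus strand) encodes a membrane-anchored protein that hands lipopolysaccharide to the Tlr4 complex and also serves Tlr2. It was at 607 and 923 normalized counts in WT, against 70.6 and 206 under the KO label. Both WT libraries lay above both others, and the WT mean was 5.54 times the other. The limma estimate was -2.62 on the log2 scale (SE 0.60, adjusted p = 0.207), and DESeq2 gave -2.47 (adjusted p = 0.00512). The 4 log2 differences between single libraries ran from -3.69 to -1.56, and the limma estimate was -1.86 without labelled Tet1 KO replicate 1 and -3.39 without replicate 2.

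Tlr5 (ENSMUSG00000079164, chromosome 1 from 182954788 to 182976044, plus strand), the flagellin receptor, rested on 5 and 6 reads in WT and on 1 and 2 reads in the libraries labelled Tet1 KO. The pooled ratio of WT to the other group was 3.70, with an exact 95% interval from counting error alone of 0.978 to 20.7. At this depth the difference was within counting error (adjusted p = 0.457 from limma).

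The 4 endosomal receptors of this group, Tlr7, Tlr8, Tlr9 and Tlr13, were low in WT. They were close to the detection floor of 3 reads in the libraries labelled Tet1 KO. There they had 4 and 9 reads in all, against 63 and 114 in WT. Tlr13 (ENSMUSG00000033777, chromosome X from 106143204 to 106160493, plus strand), a mouse receptor for bacterial ribosomal RNA, had 36.3 and 52.4 normalized counts in WT, against 1.07 and 1.80 under the KO label. It had 91 reads in WT in all and 3 in the other group, a ratio of 30.6 with an exact 95% counting interval of 10.2 to 151. The limma estimate was -4.21 on the log2 scale (SE 0.71, adjusted p = 0.148), and DESeq2 gave -4.93 (adjusted p = 0.00247).

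Tlr8 (ENSMUSG00000040522, chromosome X from 167242696 to 167264329, minus strand) had 12.8 and 12.9 normalized counts in WT and 0 in both libraries labelled Tet1 KO. Against the floor of 3 reads in each of those libraries, it was at least 4.34-fold lower. Tlr7 (ENSMUSG00000044583, chromosome X from 167304929 to 167330558, minus strand), a receptor for single-stranded RNA that lies 40599 bases from Tlr8, had 11.7 and 25.7 in WT, against 3.21 and 5.41 under the KO label. The groups of Tlr7 did not overlap, but its limma log2 fold change of -1.83 (SE 0.78, adjusted p = 0.389) had an unadjusted p of 0.0620, and neither edgeR nor DESeq2 called it. Without a variance trend, limma gave Tlr7 an unadjusted p of 0.0286 and Tlr5 one of 0.0206. Tlr9 (ENSMUSG00000045322, chromosome 9 from 106222598 to 106226883, plus strand), the receptor for unmethylated CpG DNA, had 6.402 and 13.8 in WT, against 0 and 0.901 under the KO label. It had 21 reads in WT in all and 1 in the other group, a ratio of 21.2 with an exact 95% counting interval of 3.41 to 877 (adjusted p = 0.265 from limma).

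No annotated gene of GENCODE M21 overlaps any of the 10. Tlr7, Tlr8 and Tlr13 lie on chromosome X, and Xist, the RNA that silences 1 X chromosome in female cells, was at 8.54 and 0.920 normalized counts in WT, against 2896 and 13367 under the KO label. Sex and label cannot be told apart here, and the part of sex in the values of these 3 receptors was not tested.

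Markers of microglia, which are known to express these receptors, moved with the label too. Of 18 such markers 17 were listed, 15 of them lower in both libraries labelled Tet1 KO than in both WT libraries and 1 higher, against 25.4% and 22.5% of all tested genes. Their summed level was 3343 and 5921 normalized counts in WT, against 1107 and 688 under the KO label. P2ry12, a defining marker, had 6.402 and 4.60 normalized counts in WT, against 0 and 0.901 under the KO label. It rested on 6 reads or fewer in each library. Tmem119 overlapped between the labels (2.13 and 38.6 in WT, against 8.56 and 1.80). Gpr34 was the marker that was higher (1.07 and 0.920 in WT, against 2.14 and 4.51), also from a few reads. Of 7 border macrophage and monocyte markers 4 were listed, with sums of 58.7 and 222 in WT, against 5.35 and 2.70 under the KO label. Most of each WT sum was Ms4a7 (54.4 and 185). Of the 4, 2 were lower under the KO label without overlap, against 25.4% of all tested genes, whereas Pf4 and Cd163 overlapped. Neuron markers were higher under the KO label without overlap for 5 of 6 genes (sums of 3510 and 1988 in WT, 2573 and 3202 under the KO label, which overlapped), against 22.5% of all tested genes. Of the 5, Snap25 (0 in both WT libraries, against 1.07 and 2.70), Dcx (1.07 and 0, against 7.49 and 4.51) and Rbfox3 (1.07 and 0.920, against 55.7 and 1.80) rested on a few reads in at least 3 libraries. The sums of oligodendrocyte lineage (6984 and 11119, against 18265 and 10765), endothelial (76.8 and 168, against 262 and 67.6) and fibroblast or meningeal markers (2484 and 3749, against 4108 and 2489) overlapped between the labels. The part of these cells in the result was not tested.

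Within a label the receptors did not follow the summed microglial markers alike. Between the WT libraries the sum was 1.77 times higher in replicate 2. Tlr7 (2.19 times), Tlr9 (2.15), Tlr6 (1.68), Cd14 (1.52) and Tlr13 (1.44) were also higher there, Tlr5 (1.03), Tlr8 (1.01) and Tlr2 (0.980) were about equal, and Tlr1 (0.715) and Tlr4 (0.564) were lower. Between the libraries labelled Tet1 KO the sum in replicate 2 was 0.621 times that in replicate 1. Tlr2 was 10.3 times, Tlr4 7.33 times and Cd14 2.91 times higher in replicate 2, whereas Tlr1 (6.33 times) and Tlr6 (2.48 times) were higher in replicate 1. Per 1000 counts of microglial markers, Tlr2 was at 658 and 364 in WT, against 50.3 and 834 under the KO label, and Tlr6 was at 7.02 and 6.68 against 335 and 218. These ratios are descriptions of single libraries without a test.

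Of 45 other genes of Toll-like receptor signalling, 41 were listed and 40 tested. At an unadjusted limma p under 0.05, 14 were lower in the libraries labelled Tet1 KO and 1 was higher, against 9.18% and 4.54% of all tested genes, while 25 did not pass and 0 had an adjusted p under 0.05 in limma or edgeR. DESeq2 called 8 lower and 0 higher, where it called 4.62% and 1.64% of all genes it tested. The count of 15 genes in limma fell when either WT replicate was left out, as did that of all tested genes. The median log2 fold change of the 40 was -0.97.

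Of the 5 accessory proteins, 4 passed the unadjusted threshold as lower. Lbp, which carries lipopolysaccharide to Cd14, had 9110 and 13219 normalized counts in WT, against 261 and 58.6 under the KO label (limma log2 fold change -6.46, SE 0.72, adjusted p = 0.0994, 2.33e-14 from DESeq2). Cd36, a scavenger receptor that assists Tlr2, had 155 and 684 against 1.07 and 19.8. Cd180, a relative of Tlr4 that lacks its signalling domain, had 57.6 and 92.9 against 2.14 and 11.7, and its partner Ly86 had 18.1 and 55.2 against 4.28 and 0.901. Ly96, the lipopolysaccharide-binding partner of Tlr4, went the other way, with 13.9 and 21.2 in WT, against 29.97 and 40.6 under the KO label, which did not overlap (limma log2 fold change 0.98, SE 0.63, adjusted p = 0.541).

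Unc93b1, which escorts the endosomal receptors out of the endoplasmic reticulum, had 383 and 684 normalized counts in WT, against 51.4 and 34.3 under the KO label. Its limma estimate was -3.58 on the log2 scale (SE 0.49, adjusted p = 0.12, 6.06e-08 from DESeq2). The chaperones Hsp90b1 and Cnpy3, which serve receptors on both membranes, had log2 fold changes of 0.30 and -0.29 and did not pass. Among the other Toll-like receptors, Tlr3, the endosomal receptor for double-stranded RNA, had 1795 and 592 in WT, against 289 and 489 under the KO label, without overlap (limma log2 fold change -1.45, SE 0.61, adjusted p = 0.383). Tlr12 had 1 read in each of 2 libraries and was below the filter.

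Of the 5 adaptors, Myd88 and Pik3ap1 passed the unadjusted threshold as lower. Myd88, used by all receptors of the family but Tlr3, had 692 and 572 normalized counts in WT, against 301 and 311 under the KO label (limma log2 fold change -1.04, SE 0.32, adjusted p = 0.284). Pik3ap1, which links the receptors to phosphoinositide signalling, had 162 and 311 against 21.4 and 26.1. Ticam1 had 410 and 398 against 447 and 331, and its groups overlapped. Of the 11 kinases and ligases, Irak2, Irak4 and Ikbke passed as lower, with log2 fold changes of -0.91, -1.55 and -2.42, and 8 did not pass, among them Irak1 (0.00, rounded), Traf6 (-0.35) and Tbk1 (-0.19).

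Of the 5 inhibitors, Irak3, a kinase-like brake that is known mainly from macrophages, passed as lower, with 144 and 190 normalized counts in WT, against 17.1 and 7.21 under the KO label (limma log2 fold change -3.77, SE 0.64, adjusted p = 0.148, 1.09e-05 from DESeq2). Sarm1 was the single gene of the list that passed as higher (105 and 124 against 362 and 190). Tnfaip3, an NF-kB target that limits the pathway, had 642 and 687 in WT, against 87.8 and 806 under the KO label, with the labelled replicates 9.18-fold apart. Of the 7 response genes tested, Tnf, Ccl5 and Nos2 passed as lower, with log2 fold changes of -3.12, -2.06 and -3.04. DESeq2 called 0 of the 7. Tnf rested on 29 and 138 reads in WT, against 2 and 18 under the KO label. Ccl5 rested on 52 and 31 against 8 and 10, and Nos2 on 14 and 16 against 0 and 3. Cxcl10 had 1790 and 2543 against 93.1 and 1053, and Ptgs2 had 81.1 and 60.7 against 24.6 and 514. Like Tlr2 and Tlr4, Tnfaip3, Cxcl10 and Ptgs2 were higher in labelled Tet1 KO replicate 2 than in replicate 1. None of the 3 endogenous ligands tested (Hmgb1, S100a8 and Bgn) passed.

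**Figure D4:**
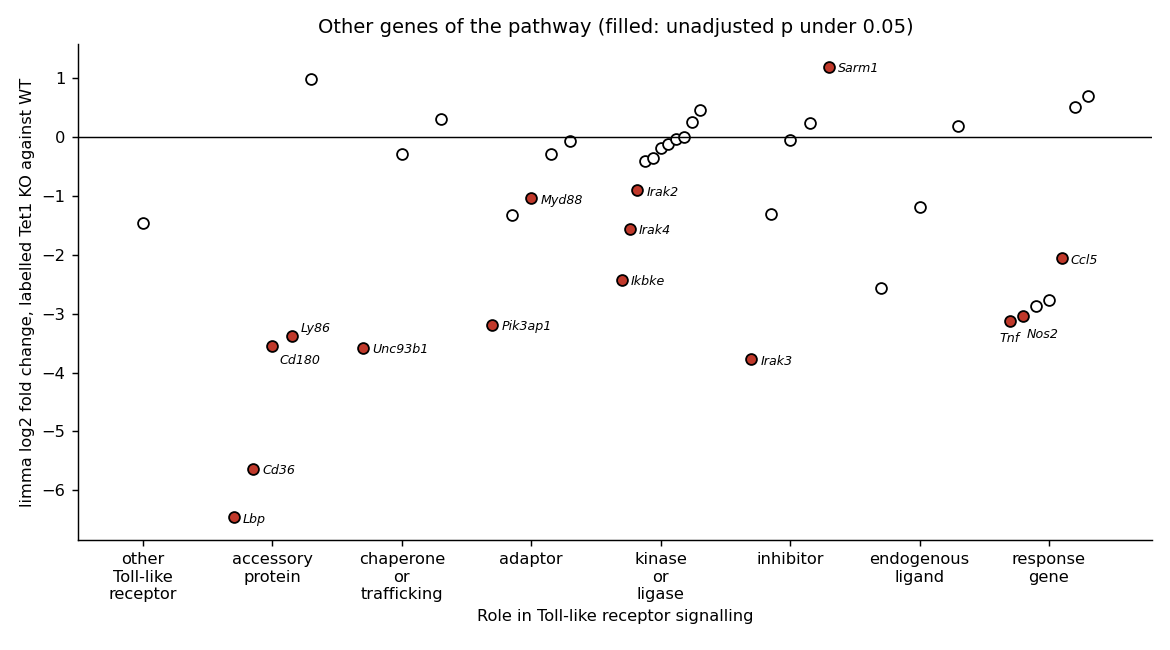
Limma log2 fold change of the libraries labelled Tet1 KO against WT (y axis) for the 40 other genes of Toll-like receptor signalling, grouped by role (x axis), with 1 point per gene and filled points where the unadjusted p was under 0.05. Filled points lie between -6.46 (Lbp) and -0.91 (Irak2), apart from Sarm1 at 1.20, and 8 of the 11 kinases and ligases are open points.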

How the data were processed

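RNA was measured by paired-end Illumina sequencing in 2 WT and 2 Tet1 KO astrocyte libraries. The authors filtered the reads and aligned them to mm10; the aligner, counter and annotation release are not given in the sources used here. The signal values deposited for each library are named FPKM. In each library 100% of them were whole multiples (within 0.01 reads) of the value of 1 read, so dividing by that value gave back whole reads, with size factors of 0.934 to 1.11. The planned design was kept. The deposited table's other columns hold gene length and position and the authors' means, fold changes and p-values, which were not used. Groups and replicate numbers came from the sample titles.

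limma 3.58.1 (lmFit, eBayes with a variance trend, R 4.3.3) was fitted to log2(normalized count + 1) for the 22094 genes whose mean reached 1, and p-values were adjusted by Benjamini and Hochberg's method. Recovered reads went into edgeR 4.0.16 (quasi-likelihood) and into DESeq2 1.42.0, which called 0 and 1088 of all genes at an adjusted p under 0.05, beside 0 by limma. The tests were checked on simulated counts. The libraries held 18749610 to 22673555 reads on genes, and intervals and the floor of 3 reads cover counting error only. The alternatives were other pseudocounts (0.1, 0.01), other minimum means (0.1, 5), no filter, 3 other scalings, no trend, a replicate block and each library left out. The genes were chosen, and the pathway and marker lists written, with earlier results of these data known. Named genes were all 10 members, pathway genes with an unadjusted p under 0.05, direct partners, and Tet1 and Xist. Other pathway genes and markers with values were chosen after their values were seen. Tables and plots used Python 3.11.15 with pandas 2.3.3, scipy 1.17.1 and matplotlib 3.10.9. Sequences are from RefSeq. Some results on single genes are not reported here.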

Additional observations from a re-analysis of the deposited data

How the results depend on the processing

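Of 159 fold changes of single genes recomputed under 16 alternatives, 150 kept their direction and their side of an adjusted p of 0.05. That side could change only with DESeq2, since limma and edgeR called no gene at that threshold. Crossings of the unadjusted threshold are not part of this count. Those of Tlr4 turned to 0.20 with quantile normalization, 0.36 with edgeR and 0.42 with DESeq2, and spanned -1.56 to 1.29 when single libraries were left out. DESeq2 brought 4 genes (Tlr2, Tlr6, Tlr13 and Cd14) under an adjusted p of 0.05, in place of 0 by limma, where 6 had an unadjusted p under 0.05, and 0 by edgeR. Without either WT replicate, fewer of the 10 genes and of the pathway genes had an unadjusted p under 0.05, as did fewer of all tested genes. The fits with 3 libraries assume that the lone library of a group varies like the other group. The median log2 fold change of the 10 ran from -2.76 to -1.89 when single libraries were left out. Of the 10 genes, 5 had an unadjusted p under 0.05 with a pseudocount of 0.01 and 8 without a variance trend. Of the 22094 tested genes 2779 and 2977 did in these fits, in place of 3032. The number of genes lower without overlap was 8 under each of the 3 other scalings. Other pseudocounts, filters and tests leave the values of the libraries as they are, so this count could not move under them. With single libraries left out it was 8 or 9, where a lone library in a group makes non-overlap easier. Under scaling to equal sums and quantile normalization all tested genes had a median of -0.12 and 0.07, beside -0.07. The replicate numbers are shared by both groups, but the deviations of same-numbered libraries had a correlation of -0.08 and no source says that a number marks a pair. With the replicate block 7 of the 10 genes had an unadjusted p under 0.05, as did 2583 of all 22094 tested genes. In that fit 0 of the 10 had an adjusted one, and 15 pathway genes passed the unadjusted threshold. A mean minimum of 5 left Tlr5 out of the fit. Reads in the single digits limit what can be said of Tlr5, Tlr7, Tlr8, Tlr9 and Tlr13 in the libraries labelled Tet1 KO.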

Other observations

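Genes with a profile over the 4 libraries most like that of the receptors were looked up by the root-mean-square difference of centred log2 values from the median profile of the 7 members with a mean of at least 10, among 12864 other genes with a mean of at least 50. Among the 5 nearest were Arl5c (difference 0.14), Myo7a (0.18), Il6ra (0.18) and Eef1a2 (0.18). Il6ra, the receptor chain for interleukin 6, had 665 and 1087 normalized counts in WT, against 147 and 294 in the libraries labelled Tet1 KO. Myo7a, an unconventional myosin, had 933 and 1401 against 165 and 265. Likeness over 4 libraries is a description, and single members, Tlr6 among them, depart from the median profile.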
